A study of Mus musculus with 18 samples.

Results

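The 9 genes described here, Aqp2, Aqp3, Aqp4, Avpr2, Scnn1a, Scnn1b, Scnn1g, Slc4a1 and Slc26a4, move water, sodium and acid equivalents across the collecting duct, the last segment of the kidney tubule. They were chosen by name for this role, and all 9 were present among the 24602 gene symbols of the count table. RNA-seq read counts were available for 18 mouse libraries, 3 in each of 6 groups that combined nuclear or total RNA with 3 genotypes of the nuclear pore gene Nup93. The genotypes were wild type (WT), R388W on a single copy (Het) and R388W on both copies (Hom), in knock-in mice whose strain was given as 129S1/SvlmJ. No treatment, age or sex was given in the labels, and the material was named as podocytes in the series text and only as mouse tissue in the sample labels. The labels do not state whether the 3 libraries within each group derive from different mice, so p-values reflect library-to-library variation alone, and that variation may be technical.

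Principal cells of the collecting duct take up water when vasopressin binds its V2 receptor, encoded by Avpr2. The receptor raises cyclic AMP, which brings the water channel encoded by Aqp2 to the apical membrane and raises its transcription, and water leaves the cell through the basolateral channels encoded by Aqp3 and Aqp4. Sodium enters the same cells through the epithelial sodium channel ENaC, built from alpha (Scnn1a), beta (Scnn1b) and gamma (Scnn1g) subunits under the control of aldosterone. Intercalated cells handle acid: type A cells return bicarbonate to the blood through the exchanger encoded by Slc4a1 (AE1, also the band 3 protein of red cells), and type B cells secrete it through pendrin, encoded by Slc26a4.

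Libraries held 17.4 to 23.5 M counts, after the sum of the 9 nuclear columns was subtracted from the deposited column of Total_WT replicate 1, which held 10.2 times the mean of the others. Levels are given as CPM, counts per mega-count of a library size scaled by TMM factors. Scaled per kilobase of gene length, Aqp2 averaged 708 CPM per kb over the 18 libraries, beside 2.29 CPM per kb for the podocyte gene Nphs1. Umod, a marker of the thick ascending limb, stood at 2098 CPM per kb, so transcripts of kidney tubules were abundant in material that the series text calls podocytes. Xist, transcribed from the inactive X chromosome of females, was at 345 to 515 CPM (group means) in Nuclear_Het, Nuclear_Hom and Total_WT and at 0.540 to 1.25 CPM in Nuclear_WT, Total_Het and Total_Hom. Each comparison with WT and each comparison between fractions therefore set groups of opposite Xist level against each other, and the factor named and the sex of the animals cannot be told apart there. In Hom against Het, within either fraction, the groups had like Xist levels.

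Per kilobase, the 9 genes ranged from 708 CPM for Aqp2 down to 11.9 CPM for Slc26a4. Aqp3 followed Aqp2 at 136 CPM per kb, then Scnn1a (47.5), Aqp4 (26.1), Avpr2 (26.0), Slc4a1 (22.5), Scnn1b (17.1) and Scnn1g (15.6). The counts behind these values were 381 or more in every library, so all 9 genes passed the low-count filter in each fit. Between the group with the lowest and the group with the highest mean, levels of single genes differed by 1.80-fold (Aqp3) to 2.90-fold (Aqp4). Total_Het had the lowest mean of the 6 groups for 8 of the 9 genes, the exception being Slc26a4, which was lowest in Total_Hom.

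**Figure D1:**
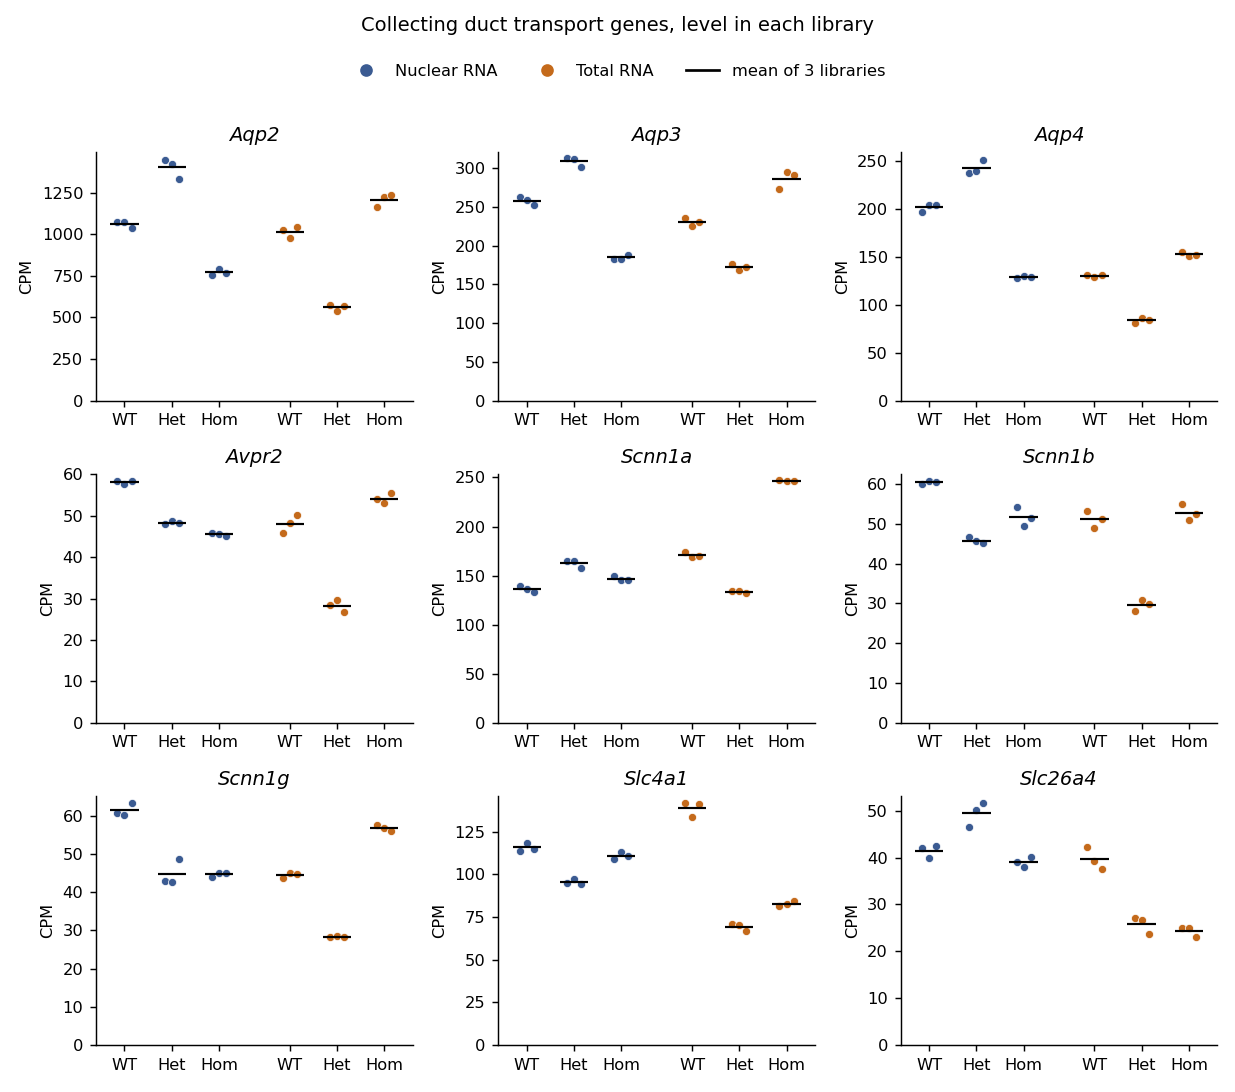
Level of each collecting duct gene (y axis, CPM scaled by TMM factors) in each of the 3 libraries of a group (points) with the group mean (line), for WT, Het and Hom in nuclear RNA (blue) and total RNA (orange). The 3 libraries of a group lie close together, Aqp2, Aqp3 and Aqp4 are highest in nuclear Het, and total Het is lowest for every gene except Slc26a4.

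Aqp2, the vasopressin-regulated apical water channel, was lowest in Total_Het and highest in Nuclear_Het. In nuclear RNA its level was 1071, 1076 and 1035 CPM in the WT libraries, 1449, 1423 and 1332 CPM in Het and 757, 790 and 766 CPM in Hom. In total RNA it was 1023, 980 and 1046 CPM in WT, 577, 541 and 568 CPM in Het and 1162, 1227 and 1234 CPM in Hom. The groups of a fraction did not overlap, and the order of genotypes was Hom, WT, Het from low to high in nuclear RNA but Het, WT, Hom in total RNA. Nuclear and total RNA of WT overlapped for this gene.

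Aqp3, a basolateral water and glycerol channel, followed Aqp2 in each fraction, with Hom lowest and Het highest in nuclear RNA and the reverse in total RNA. Its nuclear libraries held 252 to 262 CPM in WT, 301 to 314 CPM in Het and 182 to 189 CPM in Hom. In total RNA it ranged from 225 to 235 CPM in WT, from 168 to 176 CPM in Het and from 274 to 295 CPM in Hom. Over the 18 libraries, which are 6 groups of 3 and so mostly repeat 6 group levels, Aqp2 and Aqp3 correlated with a Pearson r of 0.967 on the log2 CPM scale, the highest among all pairs of the 9 genes.

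Since Aqp2 and Aqp3 moved together, the bases before their RefSeq start sites are shown 5′ to 3′ on the gene's strand, from 250 to 11 bases before the start in GRCm38.p6. Aqp2 lies on chromosome 15 and the stretch is chr15:99578806-99579045, plus strand. Aqp3 lies on chromosome 4 and the stretch is chr4:41098194-41098433, minus strand. Capitals mark exact matches on either strand to any of 7 words: TGACGTCA for the cyclic AMP response element, CGTCA for its short form (contained in the full word), GATAA for GATA factors, AGAACA for the short form of the steroid receptor site, TGGAAA for the NFAT family, TGTTTAC for forkhead factors and TATAAA for the TATA box.
Aqp2: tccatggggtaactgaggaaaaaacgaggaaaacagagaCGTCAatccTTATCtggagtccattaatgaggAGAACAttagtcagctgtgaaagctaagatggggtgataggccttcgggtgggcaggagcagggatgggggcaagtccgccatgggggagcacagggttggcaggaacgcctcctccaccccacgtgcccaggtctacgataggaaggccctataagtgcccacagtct
Aqp3: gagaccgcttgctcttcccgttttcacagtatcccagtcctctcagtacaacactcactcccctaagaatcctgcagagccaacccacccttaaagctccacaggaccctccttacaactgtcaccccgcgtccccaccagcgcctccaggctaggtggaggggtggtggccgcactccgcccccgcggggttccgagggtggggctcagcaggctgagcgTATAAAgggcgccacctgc
The Aqp2 stretch held 1 match to the short cyclic AMP word, found in 16.9% of the 32851 promoter stretches of the same length in the RefSeq table, 1 to the GATA word (22.0%) and 1 to the steroid receptor word (15.5%), at 211, 202 and 179 bases before the start. The Aqp3 stretch held only the TATA box word, 29 bases before the start, a word found in 12.1% of stretches, so the matches of these 2 promoters did not coincide. Of the 6 genes with an entry in the table, 3 held the steroid receptor word, 2 the GATA word, 3 the TATA box word, 1 the forkhead word (3.06% of all stretches), 1 the short cyclic AMP word and 0 the full one (1.44%) or the NFAT word (18%). These matches describe the reference letters of another strain and were not tested for binding.

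Aqp4, the other basolateral water channel, shared the order of genotypes with Aqp2 and Aqp3. Its nuclear level was 202 ± 4.58 CPM (SD, n = 3) for WT, 243 ± 7.29 CPM for Het and 129 ± 0.769 CPM for Hom. In total RNA it stood at 131 ± 1.14 CPM in WT, 83.8 ± 2.56 CPM in Het and 153 ± 2.09 CPM in Hom. Unlike Aqp2, whose nuclear and total libraries of WT overlapped, Aqp4 was higher in nuclear than in total RNA of WT (log2 0.62 ± 0.03 SE, edgeR adjusted p = 2.42e-43).

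Avpr2, the V2 receptor gene on the X chromosome, did not follow the water channels in nuclear RNA. It stood at 58.2 ± 0.392 CPM (SD, n = 3) in Nuclear_WT, above 48.3 ± 0.428 CPM in Het and 45.5 ± 0.423 CPM in Hom. In total RNA it stood at 48.1 ± 2.18 CPM in WT, 28.3 ± 1.49 CPM in Het and 54.1 ± 1.21 CPM in Hom, the same order as for Aqp2. In the order of group means, Total_WT overlapped with its neighbours Nuclear_Hom and Nuclear_Het, which did not overlap with each other. Avpr2 overlaps the antisense genes Arhgap4 and L1cam in GENCODE, and the strand setting of the counting was not given in the sources used here, so reads of these genes cannot be told apart with certainty. L1cam stood at 74.0 ± 4.88 CPM in Total_Het and between 108 and 118 CPM in the other groups.

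Scnn1a, the alpha subunit of ENaC, was highest in Total_Hom, where its libraries held 248, 247 and 246 CPM. The Total_WT libraries held 174, 169 and 170 CPM and those of Total_Het 134, 134 and 132 CPM. In nuclear RNA it stood at 140, 137 and 133 CPM in WT, 165, 165 and 157 CPM in Het and 150, 145 and 146 CPM in Hom. Only Total_Het and Nuclear_WT, the neighbours at the low end, overlapped.

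The beta and gamma subunits were ordered otherwise. Scnn1b was highest in Nuclear_WT at 60.4 ± 0.489 CPM (SD, n = 3), against 45.8 ± 0.788 CPM in Nuclear_Het and 51.7 ± 2.38 CPM in Nuclear_Hom. Its total libraries averaged 51.1 ± 2.04 CPM for WT, 29.6 ± 1.34 CPM for Het and 52.8 ± 2.06 CPM for Hom. Scnn1g was also highest in Nuclear_WT at 61.5 ± 1.65 CPM, against 44.8 ± 3.49 CPM in Het and 44.7 ± 0.738 CPM in Hom, and 44.5 ± 0.641, 28.4 ± 0.107 and 56.9 ± 0.732 CPM in total RNA of WT, Het and Hom. For both subunits Nuclear_WT was the top group and Total_Het the lowest. These genes are neighbours on chromosome 7, 96.6 kb apart in GRCm38.p6, and correlated with an r of 0.931 over the 18 libraries, beside 0.323 between Scnn1a and Scnn1b. Both correlated with Avpr2 at 0.955 (Scnn1b) and 0.966 (Scnn1g). By ranks (Spearman) the values were lower, at 0.783 for Scnn1b with Scnn1g and 0.181 for Scnn1a with Scnn1b. With Avpr2 they were 0.715 (Scnn1b) and 0.835 (Scnn1g). Total_Het was lowest for Avpr2 as well. Scnn1b overlaps the antisense gene Cog7, so its counts carry the same doubt as those of Avpr2. Cog7 stood between 67.4 and 76.9 CPM in all groups and did not share the low level of Total_Het.

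Slc4a1, the bicarbonate exchanger of type A intercalated cells, was highest in Total_WT, at 142, 134 and 141 CPM. The other total libraries were lower, at 70.7, 70.4 and 66.7 CPM in Het and 81.3, 82.6 and 84.3 CPM in Hom. In nuclear RNA its level was 114, 118 and 115 CPM in WT, 95.1, 97.2 and 94.2 CPM in Het and 109, 113 and 111 CPM in Hom. No neighbours in the order of its 6 group means overlapped. Red cells also use Slc4a1, so erythroid markers were set beside it: Epb42 was at or below 2.42 CPM in every library. Alas2, the heme synthesis enzyme of red cell precursors, stood at 15.3 to 33.1 CPM (group means) in nuclear and 85.6 to 113 CPM in total RNA. It was highest in Total_Hom, where Slc4a1 was low. Hemoglobin genes were at or near 0, but they have near-identical copies whose reads the counting could have dropped.

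Slc26a4, or pendrin, had the lowest level per kilobase of the 9 genes and was lowest in total RNA of both mutant genotypes. Its nuclear libraries held 42.1, 39.9 and 42.5 CPM in WT, 46.6, 50.2 and 51.7 CPM in Het and 39.1, 38.0 and 40.2 CPM in Hom. Its total libraries held 42.3, 39.3 and 37.5 CPM in WT, 27.1, 26.7 and 23.7 CPM in Het and 25.1, 24.9 and 23.1 CPM in Hom. The WT libraries of both fractions overlapped, as did Total_Het with Total_Hom and Nuclear_Hom with Total_WT.

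Nuclear RNA of Hom was compared with that of WT, groups of opposite Xist level in which genotype and sex cannot be told apart. Of the 9 genes 6 were lower, 1 was higher and 2 did not pass, in a comparison in which 54.3% of all genes tested were called. The water channels had the largest differences: Aqp4 fell by 0.64 ± 0.03 (SE) on the log2 scale, Aqp3 by 0.48 ± 0.03 and Aqp2 by 0.45 ± 0.02 (edgeR adjusted p = 2.39e-34, 3.22e-28 and 1.52e-28). Scnn1g fell by 0.45 ± 0.05, Avpr2 by 0.35 ± 0.04 and Scnn1b by 0.22 ± 0.04. Scnn1a rose by 0.11 ± 0.03 (edgeR adjusted p = 0.00167). Slc4a1 (log2 -0.05 ± 0.03, edgeR adjusted p = 0.177) and Slc26a4 (log2 -0.08 ± 0.05, 0.155) did not pass. In a bulk sample, fewer cells of a type and less RNA per cell cannot be told apart, here and in what follows.

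In nuclear RNA of Het against WT, 64.6% of all genes tested were called and all 9 collecting duct genes passed, 5 higher and 4 lower. Aqp2 (log2 0.41 ± 0.02 SE, edgeR adjusted p = 1.04e-26), Aqp4 (0.28 ± 0.03), Aqp3 (0.27 ± 0.03), Slc26a4 (0.26 ± 0.05) and Scnn1a (0.26 ± 0.03) rose. Scnn1g (log2 -0.45 ± 0.05, edgeR adjusted p = 1.06e-14), Scnn1b (-0.39 ± 0.04), Slc4a1 (-0.27 ± 0.04) and Avpr2 (-0.26 ± 0.04) fell. The principal cell genes Aqp2 and Scnn1g went in opposite directions, as did Slc26a4 of type B and Slc4a1 of type A intercalated cells. With library totals alone Avpr2 no longer passed (log2 -0.08). Markers of other cell types differed in the same comparison: 5 of 5 immune markers (median log2 2.09) and 6 of 6 urothelial markers (1.66) were higher, and 6 of 6 proximal tubule markers (-0.83) were lower. Immune markers summed to 1310 ± 37.0 CPM (SD, n = 3) in Nuclear_Het and 441 ± 4.54 CPM in Nuclear_WT, and the part of these cell types in the result was not tested. Both nuclear comparisons with WT share their WT libraries.

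Total RNA of Het against WT, with 61.1% of all genes tested called, was lower for all 9 genes. Slc4a1 fell most, by 1.01 ± 0.03 (SE) on the log2 scale, or by 50.2% (edgeR adjusted p = 3.34e-60). Aqp2 fell by 0.86 ± 0.03, Scnn1b by 0.79 ± 0.05, Avpr2 by 0.77 ± 0.05, Scnn1g by 0.65 ± 0.05, Aqp4 by 0.64 ± 0.03 and Slc26a4 by 0.62 ± 0.06. Aqp3 (log2 -0.42 ± 0.03) and Scnn1a (log2 -0.35 ± 0.03) had the smallest differences of the 9. The median over the 9 genes was -0.65, beside -0.01 over all genes tested, of which 4644 were higher and 4555 lower. Proximal tubule markers summed to 32840 ± 481 CPM (SD, n = 3) in Total_Het and 12950 ± 107 CPM in Total_WT and podocyte markers to 231 ± 2.49 and 417 ± 8.46 CPM. By gene, 5 of the 6 proximal tubule markers were higher and 1 lower, with a median log2 of 0.69 that is smaller than the difference of the sums. The most abundant of them, Kap, ran from 1585 to 23400 CPM over the 18 libraries. The part of these other cell types in the result was not tested.

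In total RNA of Hom against WT, with 61.6% of all genes tested called, 6 of the 9 genes were higher, 2 lower and 1 did not pass. Scnn1a rose by 0.53 ± 0.03 (SE) on the log2 scale (edgeR adjusted p = 1.70e-41), Scnn1g by 0.35 ± 0.04, Aqp3 by 0.31 ± 0.03, Aqp2 by 0.25 ± 0.03, Aqp4 by 0.23 ± 0.03 and Avpr2 by 0.17 ± 0.04. Scnn1b gave 0.05 ± 0.04 and did not pass (edgeR adjusted p = 0.362). Both intercalated cell genes fell, Slc4a1 by 0.75 ± 0.03 and Slc26a4 by 0.70 ± 0.06 (edgeR adjusted p = 7.88e-48 and 5.21e-24). With the deposited column of Total_WT replicate 1 in place of the remainder, Aqp4 no longer passed (log2 0.05). Markers of other segments were lower there as well, with 6 of 8 thick limb and distal markers (median log2 -0.45) and 5 of 6 proximal tubule markers (-0.35), and all 6 urothelial markers were higher (0.92). Their part in the result was not tested. Both total comparisons with WT share their WT libraries.

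Within each fraction, Hom against Het compared groups of like Xist level, high in nuclear RNA and low in total RNA. The fractions went opposite ways for the water channels, and fraction and Xist level cannot be told apart in that contrast. In nuclear RNA, with 43.2% of all genes tested called, 5 of the 9 genes were lower, 2 higher and 2 did not pass. Aqp4 fell by 0.92 ± 0.03 (SE) on the log2 scale, Aqp2 by 0.87 ± 0.02 and Aqp3 by 0.75 ± 0.03 (edgeR adjusted p = 8.46e-46, 6.55e-45 and 7.58e-42), followed by Slc26a4 (-0.35 ± 0.05) and Scnn1a (-0.15 ± 0.03). Slc4a1 (log2 0.21 ± 0.04) and Scnn1b (0.17 ± 0.04) rose. Avpr2 gave -0.09 ± 0.04 (edgeR adjusted p = 0.0842; it passed with library totals alone, at -0.15) and Scnn1g -0.01 ± 0.05 (0.922). In the same comparison 5 of 5 immune markers (median log2 -1.72) and 6 of 6 urothelial markers (-1.17) were lower and 6 of 6 proximal tubule markers (0.40) higher, and their part was not tested.

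In total RNA, Hom exceeded Het in 8 of the 9 genes, with 67.0% of all genes tested called. Aqp2 rose by 1.11 ± 0.03 (SE) on the log2 scale, or by 115% (edgeR adjusted p = 4.08e-10), and Scnn1g by 101% (± 0.05 SE on the log2 scale). Avpr2 (0.94 ± 0.05), Scnn1a (0.89 ± 0.03), Aqp4 (0.87 ± 0.03), Scnn1b (0.84 ± 0.05) and Aqp3 (0.74 ± 0.03) rose too. Slc4a1 rose less, by 0.26 ± 0.04, and Slc26a4 gave -0.09 ± 0.06 and did not pass (edgeR adjusted p = 0.199). Total_Hom replicate 2 stood apart from the other Total_Hom libraries in its share of the ribosomal RNA precursor Rn45s, and each of these calls stood without it. Other cell types differed in the same comparison: 6 of 6 podocyte markers (median log2 0.94), 6 of 6 urothelial markers (1.28) and 4 of 5 endothelial markers (0.62) were higher, and 6 of 6 proximal tubule markers (-0.98) were lower. The part of these differences in the result was not tested.

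**Figure D2:**
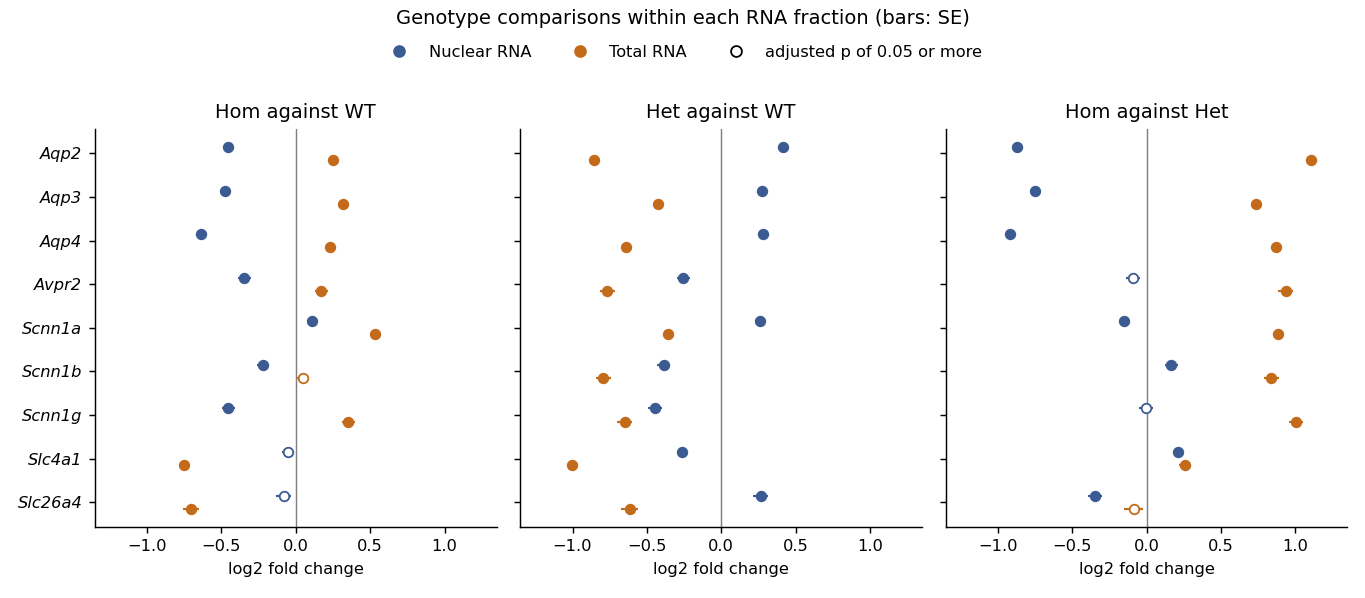
Log2 fold change (x axis) of each collecting duct gene for Hom against WT, Het against WT and Hom against Het, in nuclear RNA (blue) and total RNA (orange), with SE bars that are mostly narrower than the symbols; open symbols did not pass. In Hom against Het the water channels lie at -0.92 to -0.75 in nuclear RNA and at 0.74 to 1.11 in total RNA.

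The difference between fractions was tested as an interaction, the log2 genotype difference in nuclear RNA minus that in total RNA. For Hom against Het it passed in 8 of the 9 genes, all negative, where 63.6% of all genes tested were called. It was -1.97 ± 0.05 (SE) for Aqp2, -1.78 ± 0.04 for Aqp4 and -1.48 ± 0.04 for Aqp3 (edgeR adjusted p = 8.30e-15, 1.83e-78 and 2.71e-75), and -0.04 ± 0.05 for Slc4a1, which did not pass (edgeR adjusted p = 0.493). For Het against WT it was positive and passed in all 9 genes (70.7% of all genes tested), from 0.20 ± 0.07 for Scnn1g to 1.27 ± 0.05 for Aqp2. For Hom against WT all 9 passed (56.1% of all genes tested): the 7 principal cell genes were negative, from -0.86 ± 0.04 for Aqp4 to -0.26 ± 0.06 for Scnn1b, and Slc4a1 (0.70 ± 0.05) and Slc26a4 (0.63 ± 0.08) were positive. Nuclear and total libraries of a genotype differed in Xist level, so fraction and animal cannot be told apart in these differences.

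Set directly against total RNA of the same genotype, nuclear RNA of Het was higher for all 9 genes (63.6% of all genes tested called), from 0.29 ± 0.03 (SE) on the log2 scale for Scnn1a to 1.54 ± 0.03 for Aqp4. In WT 5 were higher, 2 lower and 2 did not pass (61.7% called). There Aqp4 (0.62 ± 0.03) and Scnn1g (0.46 ± 0.04) were highest and Scnn1a (-0.33 ± 0.03) and Slc4a1 (-0.27 ± 0.03) were the lower ones. With library totals alone Aqp3 (log2 -0.00372) and Scnn1b (0.07) no longer passed in WT and Aqp2 passed as lower (-0.11), and with the deposited column of Total_WT replicate 1 Slc4a1 no longer passed (-0.15). In Hom 6 were lower, 2 higher and 1 did not pass (60.3% called). Scnn1a (-0.75 ± 0.03), Aqp2 (-0.65 ± 0.04) and Aqp3 (-0.63 ± 0.03) fell furthest below total RNA, while both intercalated cell genes lay above it, Slc26a4 by 0.68 ± 0.06 and Slc4a1 by 0.42 ± 0.03. Aqp4 and Slc26a4 thus stood on different sides of 0 in Hom and on the same side in Het.

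Ratios between 2 genes within a library do not depend on how libraries are scaled, and they showed which genes moved apart. The ratio of Scnn1a to Scnn1b, on the CPM per kb scale, averaged 1.84 ± 0.0541 (SD, n = 3) for WT, 2.89 ± 0.0501 for Het and 2.32 ± 0.0727 for Hom in nuclear RNA. It was 2.72 ± 0.0760, 3.69 ± 0.181 and 3.81 ± 0.139 in total RNA of WT, Het and Hom. The WT libraries did not overlap with the mutant libraries in either fraction, whereas Total_Het and Total_Hom overlapped. The ratio of Scnn1b to Scnn1g varied less, with group means between 0.978 and 1.22. Its groups still separated: Hom was 1.175-fold WT in nuclear RNA and 0.8086-fold WT in total RNA, without overlap. Within a fraction, only Nuclear_Het and Nuclear_WT overlapped in this ratio. With 3 libraries against 3, an exact 2-sided permutation test cannot go below p = 0.1. It gave 0.1 for Scnn1a to Scnn1b in each comparison with WT. For Scnn1b to Scnn1g it gave 0.1 in Hom against WT of either fraction.

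The ratio of Aqp2 to Scnn1a, a water channel against a sodium channel subunit, ran from 10.4 ± 0.382 (SD, n = 3) in Total_Het to 21.3 ± 0.395 in Nuclear_Het. It was 19.2 ± 0.251 in Nuclear_WT, 13.0 ± 0.468 in Nuclear_Hom, 14.7 ± 0.487 in Total_WT and 12.1 ± 0.430 in Total_Hom. The ratio of Slc26a4 to Slc4a1, type B against type A intercalated cell genes, was highest in Nuclear_Het at 0.765 ± 0.0438, against 0.529 ± 0.0270 in Nuclear_WT and 0.520 ± 0.0218 in Nuclear_Hom. In total RNA it was also highest in Het, at 0.550 ± 0.0223, against 0.422 ± 0.0256 in WT and 0.435 ± 0.0263 in Hom. WT and Hom overlapped in this ratio in both fractions (exact permutation p = 0.500 in each), and Het stood above both without overlap.

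**Figure D3:**
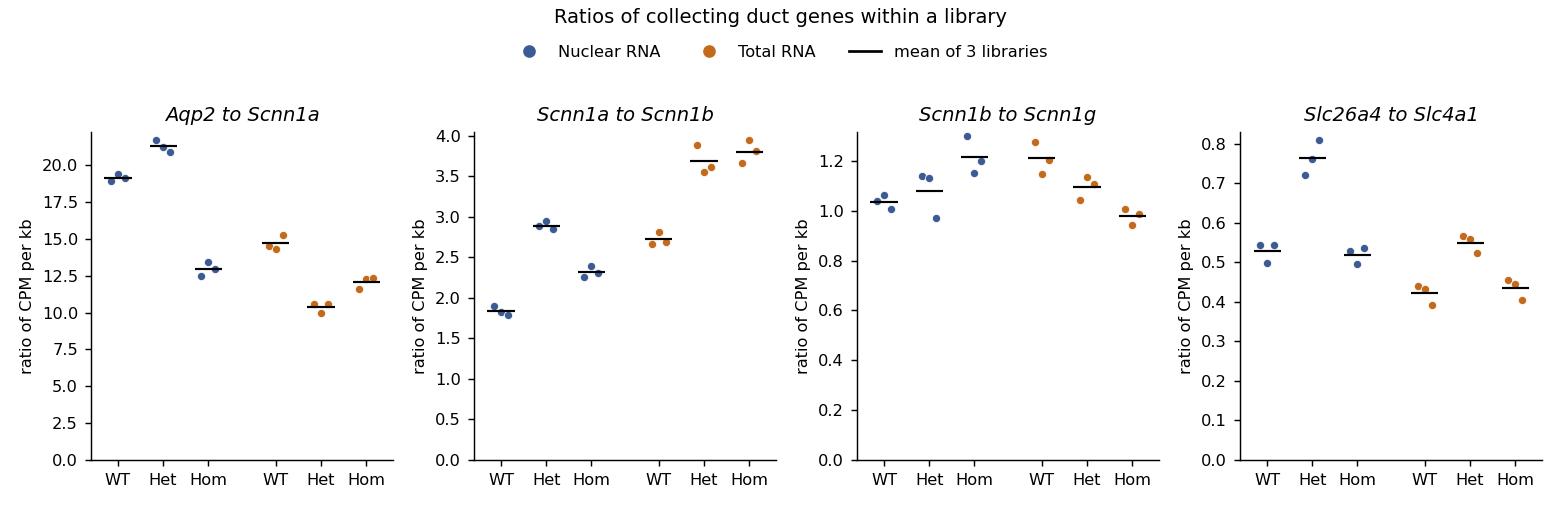
Ratio of 2 collecting duct genes within each library (y axis, ratio of CPM per kb) for Aqp2 to Scnn1a, Scnn1a to Scnn1b, Scnn1b to Scnn1g and Slc26a4 to Slc4a1, with points for libraries and lines for group means. Scnn1a to Scnn1b runs from 1.84 in nuclear WT to 3.81 in total Hom, while group means of Scnn1b to Scnn1g lie between 0.978 and 1.22.

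Other genes of the principal cell were examined as a list of 10 identity genes. In total RNA of Het against WT all 10 were lower (median log2 -0.60), for example the transcription factor Gata3 (-0.86 ± 0.05 SE) and the matrix protein gene Npnt (-1.39 ± 0.02). In nuclear RNA of Het against WT 8 were higher and 1 lower (median log2 0.36, beside 0.02 over all genes tested). Gata3 (0.80 ± 0.05) and the keratin genes Krt18 (0.98 ± 0.04) and Krt19 (1.55 ± 0.05) rose. These are also expressed in urothelium, whose 6 markers were all higher in this comparison (median log2 1.66), and the part of that tissue in their rise was not tested. Fxyd4, a regulator of the sodium pump in the collecting duct, fell there (log2 -0.42 ± 0.04), as Scnn1b and Scnn1g did. In nuclear RNA of Hom against WT 6 were higher and 2 lower, so Gata3 (0.40 ± 0.05) and Aqp2 went opposite ways, while Fxyd4 fell (-0.59 ± 0.04). In total RNA of Hom against WT 3 were higher and 3 lower, and Gata3 gave -0.01 ± 0.04 and did not pass (edgeR adjusted p = 0.914). Over all genes tested, 61.1% were called in total Het, 64.6% in nuclear Het, 54.3% in nuclear Hom and 61.6% in total Hom, each against WT. In Hom against Het, whose groups had like Xist levels, 8 were lower and 0 higher in nuclear RNA (median log2 -0.29, 43.2% of all genes called). In total RNA all 10 were higher (median 0.55, 67.0% called). Gata3 gave -0.41 ± 0.05 and 0.85 ± 0.05 there, the directions of Aqp2. All 6 urothelial markers also fell in nuclear and rose in total RNA, and their part was not tested.

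Aldosterone and ENaC control was a list of 15 genes that includes the mineralocorticoid receptor (Nr3c2), the kinase Sgk1, the ubiquitin ligase Nedd4l and the cortisol-inactivating enzyme Hsd11b2. Nr3c2 did not pass in Hom against WT in nuclear (log2 -0.08 ± 0.07 SE, edgeR adjusted p = 0.347) or total RNA (-0.08 ± 0.07, 0.305), and fell in Het against WT in both, by 0.30 ± 0.07 in nuclear and 0.33 ± 0.08 in total RNA (edgeR adjusted p = 0.000183 and 6.07e-05). Sgk1, an aldosterone-induced kinase that keeps ENaC at the membrane, rose in nuclear Hom (0.73 ± 0.03), nuclear Het (0.58 ± 0.03) and total Hom (0.56 ± 0.03) and fell in total Het (-0.68 ± 0.03), each against WT. Scnn1a passed in the same direction as Sgk1 in these 4 comparisons. The other subunits did not: Scnn1b and Scnn1g fell in nuclear Hom (-0.22 and -0.45) and nuclear Het (-0.39 and -0.45), where Sgk1 rose. In total Het both fell, and in total Hom Scnn1g rose and Scnn1b did not pass. A link between Sgk1 and the subunits was not tested. Hsd11b2 fell in all 4, most in total Het (-0.99 ± 0.03). In the list, 1 gene was higher and 12 lower in nuclear Hom against WT (median log2 -0.17; 2 and 6 with library totals alone), and 3 were higher and 12 lower in nuclear Het against WT (median -0.30; 3 and 9 with library totals alone). Over all genes tested, 54.3% and 64.6% were called in these comparisons. In total RNA 7 were higher and 6 lower in Hom against WT (61.6% of all genes called) and 5 higher and 8 lower in Het against WT (61.1%), the latter 2 and 11 with library totals alone.

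The genes of that list with the smallest p in total RNA of Hom against WT included Per1, Usp2 and Tsc22d3. Per1 (log2 1.72 ± 0.04 SE), Usp2 (1.51 ± 0.04) and Tsc22d3 (1.02 ± 0.03) rose in total RNA of Hom against WT, whereas Usp2 (-0.93 ± 0.04) and Per1 (-0.65 ± 0.04) fell in nuclear RNA of Hom against WT. Per1 encodes a clock protein, Usp2 a deubiquitinase and Tsc22d3 a glucocorticoid-induced leucine zipper protein.

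The intercalated cell list of 24 genes held mostly lower genes in total RNA of both mutant genotypes. In Hom against WT 21 were lower and 1 higher (median log2 -0.40, beside 0.00 over all genes tested), and in Het against WT 21 were lower and 1 higher (median -0.65), where 61.6% and 61.1% of all genes were called. Other lists were lower beside it: thick limb and distal markers (median -0.45) and proximal tubule markers (-0.35) in Hom, and principal cell identity genes (-0.60) and podocyte markers (-1.10) in Het. Foxi1, the transcription factor that specifies intercalated cells, fell by 0.76 ± 0.05 (SE) on the log2 scale in total Hom and by 0.63 ± 0.05 in total Het. The ammonia channel gene Rhbg fell by 0.93 ± 0.05 and the proton pump subunit gene Atp6v1g3 by 0.68 ± 0.04 in total Hom. In nuclear RNA the list was split, with 7 higher and 9 lower in Hom against WT and 6 higher and 11 lower in Het against WT, a split that became 8 and 4, and 15 and 6, with library totals alone. Over all genes tested, 54.3% and 64.6% were called there. Foxi1 rose in nuclear RNA, by 0.83 ± 0.05 in Hom and 0.73 ± 0.05 in Het, so in neither nuclear comparison with WT did Slc4a1 and Foxi1 pass in the same direction.

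A list of 11 genes covered vasopressin signalling and urea transport. In total RNA 8 were lower and none (0) higher in Hom against WT (edgeR; median log2 -0.22), and 7 were lower and 3 higher in Het against WT (1 higher and 8 lower with library totals alone), with 61.6% and 61.1% of all genes called. In nuclear RNA, with 54.3% and 64.6% of all genes called, 6 were higher and 3 lower in Hom against WT, and 3 higher and 3 lower in Het against WT (8 and 1 with library totals alone). Its urea transporter gene Slc14a2, expressed in the inner medullary collecting duct, rose by 0.82 ± 0.03 (SE) on the log2 scale in nuclear Het and by 0.17 ± 0.03 in nuclear Hom, and fell by 1.32 ± 0.03 in total Het and by 0.37 ± 0.03 in total Hom. Adcy6, the adenylyl cyclase that acts below the V2 receptor, rose by 0.28 ± 0.03 in nuclear Hom and fell by 0.61 ± 0.03 in total Het, all against WT.

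Markers of the lining of the renal pelvis differed between the groups as well. The 6 urothelial markers, which mark a tissue that also uses Aqp3, summed to 273 ± 13.9 CPM (SD, n = 3) in Nuclear_Het and 172 ± 6.15 CPM in Total_Hom. These are the groups with the highest Aqp2 and Aqp3. The sums were 94.1 ± 0.769 CPM in Nuclear_WT, 124 ± 2.27 CPM in Nuclear_Hom, 78.9 ± 0.569 CPM in Total_WT and 76.1 ± 1.33 CPM in Total_Het. All 6 were higher in nuclear Het, nuclear Hom and total Hom against WT (median log2 1.66, 0.49 and 0.92). In these comparisons 64.6%, 54.3% and 61.6% of all genes tested were called. None of the 6 markers was at 0 in any group. In nuclear Hom they were higher while Aqp2 and Aqp3 were lower. Their part in the levels of the collecting duct genes was not tested.

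**Figure D4:**
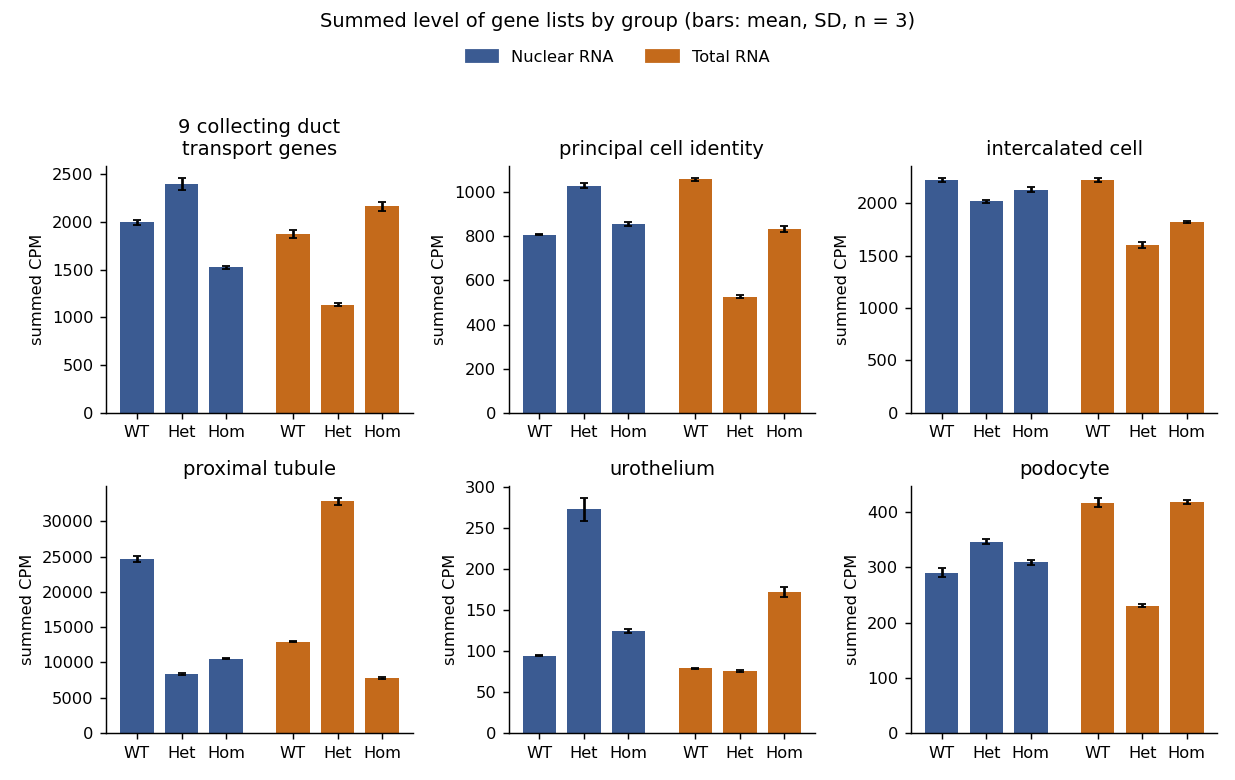
Summed level (y axis, CPM, mean of 3 libraries with SD) of the 9 collecting duct transport genes and of markers of principal cells, intercalated cells, the proximal tubule, urothelium and podocytes in each group, nuclear RNA in blue and total RNA in orange. The 9 genes sum to 1133 CPM in total Het and 2400 CPM in nuclear Het, and total Het has the highest proximal tubule sum, 32840 CPM. That sum includes the abundant gene Kap. By gene, the proximal tubule markers had a median log2 of 0.69 in total Het against WT, smaller than the difference of the sums.

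The genes whose levels ran most like each collecting duct gene over the 18 libraries were listed by Pearson r on log2 CPM, with genes averaging under 5 CPM left out. The points are 6 groups of 3 libraries that share group, depth and tissue makeup, so r is a description. For Aqp2 they were Aqp3 (0.967), Muc20 (0.965) and Camkk2 (0.963), and for Aqp4 Plet1 (0.962), Muc20 (0.958) and Slc9a4 (0.955). Aqp3 was closest to Aqp2, C77080 (0.951) and Kif26b (0.946). Avpr2 ran with Hif1a (0.976), Epb41l3 (0.974) and Scnn1g (0.966), and Scnn1g with Avpr2, Epb41l3 (0.942) and Scnn1b (0.931). Scnn1b was closest to Cldn8 (0.971), Hif1a (0.960) and Avpr2 (0.955). Scnn1a had Rhob (0.985), Nrbp2 (0.985) and Ephb4 (0.984), none of them shared with the other subunits. Slc4a1 was closest to Slc16a7 (0.979), Enah (0.972) and Rhbg (0.962), and Slc26a4 had Slc4a8 (0.969) and Hnrnph1 (0.955) among its closest.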

How the data were processed

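The authors deposited raw counts per gene symbol for 18 libraries, with gene lengths. CASAVA, STAR 2.5.2b, featureCounts, DESeq2 and build mm9 are named in the submitters' processing notes; annotation and strand setting are not given in the sources used here. Libraries were made with a stranded mRNA kit from TRIzol RNA, per the labels' protocols. The sum of the 9 nuclear columns, 181106189 counts, was subtracted from Total_WT replicate 1, where 0 genes lay below it. The fits used edgeR 4.0.16 under R 4.3.3 (low-count filter filterByExpr, TMM scaling, robust glmQLFit, glmQLFTest, Benjamini-Hochberg adjusted p under 0.05 over all genes): the 9 libraries of a fraction for genotypes (15112 nuclear and 15051 total genes), all 18 for ratios and fractions (15410 genes). CPM used TMM sizes of all 18 libraries, per kb of the deposited length where genes are compared. Fits were tested on simulated data. Alternatives included DESeq2 1.42.0, other scalings and filters, a replicate block and leaving out each library. Named genes were the 9 genes, fixed markers, up to 4 genes per list with the smallest p, and the 3 most alike in level. Members and lists were chosen with earlier results of these data known. Promoter sequences and positions are RefSeq GRCm38.p6, with 6 of the 9 genes matched and 1 gene left out. A few genes that these rules would name are not reported here.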

Additional observations from a re-analysis of the deposited data

Results flagged for a closer look

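The genotype difference differed between nuclear and total RNA in 26 of 27 tests on the collecting duct genes (edgeR interaction term), and each value below is the log2 difference in nuclear RNA minus that in total RNA. The comparisons of a gene share their groups, and any of them follows from the others, so the 27 tests are not independent. Over all genes tested the same term was called in 56.1% (Hom against WT), 70.7% (Het against WT) and 63.6% (Hom compared with Het). For Hom against WT it was -0.70 for Aqp2, -0.79 for Aqp3, -0.86 for Aqp4, -0.51 for Avpr2, -0.42 for Scnn1a, -0.26 for Scnn1b and -0.80 for Scnn1g. For the same comparison it was 0.70 for Slc4a1 and 0.63 for Slc26a4. For Het against WT it was 1.27 for Aqp2, 0.70 for Aqp3, 0.92 for Aqp4, 0.51 for Avpr2, 0.62 for Scnn1a, 0.40 for Scnn1b, 0.20 for Scnn1g, 0.74 for Slc4a1 and 0.88 for Slc26a4. For Hom against Het it was -1.97 for Aqp2, -1.48 for Aqp3, -1.78 for Aqp4, -1.02 for Avpr2, -1.03 for Scnn1a, -0.67 for Scnn1b, -1.01 for Scnn1g and -0.25 for Slc26a4. Scnn1b in Hom against WT no longer passed with library totals alone (-0.12), nor did Scnn1g in Het against WT without Nuclear_Het replicate 3 (0.14). The nuclear and total groups of each genotype had opposite Xist levels, which the test does not separate from the fraction.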

How the results depend on the processing

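The number of the 9 genes called stayed within 1.5 times its value in all 12 comparisons under every alternative run. This is a loose measure, since it ignores the direction of a call and which genes passed. Of 1809 values of single genes under an alternative, 1789 kept their direction and their side of the threshold. Library totals without TMM factors moved the all-gene median from 0.02 to 0.20 in nuclear Het against WT and from -0.01 to -0.17 in nuclear against total RNA of WT, and reversed 6 values: Slc4a1 (log2 0.0677) and Slc26a4 (0.0406) in nuclear Hom against WT, Slc26a4 in total Hom against Het (0.0636), and Aqp2 (-0.11, which then passed), Aqp3 (-0.00372, which no longer passed) and Slc26a4 (-0.10) in nuclear against total RNA of WT. With it Scnn1b also no longer passed in nuclear against total RNA of WT (0.07) or in the ratio of Hom against WT (-0.12). Scnn1g in nuclear Hom against Het, which did not pass, ranged from -0.0434 to 0.0573 when each library was left out, and Scnn1b in nuclear against total RNA of Hom from -0.0693 to 0.003118. Scnn1g in the ratio of Het against WT no longer passed without Nuclear_Het replicate 3 (0.14). With the replicate block, 108 of 108 values kept their side and direction. Same-numbered libraries of different groups did not deviate together (r from -0.0446 to 0.0444 over 45 pairs), and 5 of 18 libraries correlated best with their own number, so the numbers were not taken to pair the samples.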

Other observations

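Genes that protect medullary cells from high osmolality differed in direction among themselves. Slc6a12, the betaine transporter, fell by 1.57 ± 0.08 (SE) on the log2 scale in total Het against WT and by 0.78 ± 0.07 in total Hom against WT, and rose by 0.29 ± 0.07 in nuclear Het against WT. Slc6a6, the taurine transporter, rose by 0.43 ± 0.02 in total Het and by 0.97 ± 0.02 in total Hom, and Slc5a3, the myo-inositol transporter, fell by 0.54 ± 0.02 and 0.68 ± 0.02. Nfat5, the transcription factor that induces all of these transporters under hypertonic conditions, fell by 0.20 ± 0.03 in total Het and rose by 0.15 ± 0.03 in total Hom, each against WT (edgeR).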
